A study of Homo sapiens with 21 samples.

Results

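The circular RNAs described here are the rarest of the table, those with exactly 1 read summed over all 21 libraries. There were 33302 of them among 124082 circular RNAs (circRNAs), or 26.8% of the identifiers, and they held 1.18% of the 2825138 reads. They were chosen by their total count, so their low level is a property of the rule and is not tested. Outside it, 20789 circRNAs had 2 reads and 12958 had 3. Identifiers are numbers of this table and carry no gene name, coordinate or sequence, so host genes and junction sequences of the once-read circRNAs were not analysed here.

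A circRNA forms by back-splicing, in which the spliceosome joins the downstream splice site of an exon to an upstream splice site of the same transcript and closes a covalent ring. Inverted repeats in the flanking introns and some RNA-binding proteins are known to bring the splice sites together. Most circRNAs are scarce compared with the linear RNA of their gene, and a few accumulate because a ring has no end for exonucleases to attack. In sequencing data a circRNA is recognised by reads across the back-splice junction, and a single such read is the least evidence that a junction can have. The caller and its read minimum are not known here, so rows with 1 read may hold false junctions, and every count below is of rows as the table lists them.

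The libraries came from 3 established human lung cell lines in 7 groups of 3. NL20 is an immortalized bronchial epithelial line that forms no tumours and was the normal control. Both cancer lines, PC-9 and NCI-H1975, carry mutant EGFR. PC-9 cells had either no resistance code or were gefitinib-resistant cells, kept in 1 µM of this EGFR inhibitor. NCI-H1975 cells had no further code, were resistant to the later EGFR inhibitor osimertinib and kept in 1 µM of it, or had been transfected with pCMV6, the plasmid control, or with FASN (fatty acid synthase), the last 2 under 50 µg/ml of the selection agent G418. All lines grew in the same medium. Nothing in the labels tells if the 3 libraries in each group were separate cultures, or if a resistant or transfected line is 1 clone, so the spread between libraries may be technical.

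Library totals ran from 95808 to 203079 reads. Osimertinib-resistant replicate 2 stood apart from the other libraries, with 15244 distinct circRNAs against 18494 to 30198 in the other 20, and the comparisons of its group are given with and without it.

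The once-read circRNAs were spread over every library, from 485 in osimertinib-resistant replicate 2 to 3018 in NL20 replicate 1, with a median of 1603. NL20, the normal control line, held 7852 of them (23.6%) with 19.0% of the reads. The 6 PC-9 libraries held 9464 (28.4%) with 27.5% of the reads, and the 12 NCI-H1975 libraries held 15986 (48.0%) with 53.5% of the reads. NL20 therefore had more of the once-read circRNAs than its share of reads, and NCI-H1975 fewer. The lines also differed in their number of libraries. A circRNA used by NCI-H1975 alone had 12 libraries in which to gain a second read, and one used by NL20 alone had 3. The part of this in the shares was not tested. Values with equal numbers of libraries stand with the comparisons to NL20.

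In NL20 the once-read circRNAs numbered 3018, 2341 and 2493 in replicates 1, 2 and 3. Scaled to depth, these were 17.2, 11.5 and 15.8 per 1000 reads. The spread within NL20 was nearly as wide as that of the 7 group means, which lay between 8.37 and 14.8, and its deepest library, replicate 2, had the fewest.

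PC-9 cells without a resistance code held 1718, 1603 and 1193 once-read circRNAs, or 13.1, 8.32 and 11.2 per 1000 reads. Gefitinib-resistant PC-9 cells held 1689, 1490 and 1771, or 15.5, 12.4 and 15.1 per 1000 reads. The resistant libraries lay higher on the whole, but the lowest of them was below the highest of the others.

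NCI-H1975 cells without a code held 2031, 1423 and 1660 once-read circRNAs, or 14.6, 9.60 and 9.74 per 1000 reads. Osimertinib-resistant cells held 1713, 485 and 1173, or 12.5, 4.39 and 8.19 per 1000 reads. These groups overlapped, and the resistant group had the widest spread of the 7.

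The pCMV6 cells, the plasmid control, held 972, 857 and 1057 once-read circRNAs, or 8.80, 8.76 and 11.0 per 1000 reads. FASN cells held 1386, 1843 and 1386, or 13.1, 12.5 and 13.0 per 1000 reads. Here the groups did not overlap, and the rate per 1000 reads varied least in FASN cells, though their counts did not. The exact (Clopper-Pearson) 95% binomial interval was 4.01 to 4.80 per 1000 reads for the lowest library of all and 16.6 to 17.8 for the highest. Such intervals take each read as an independent draw and leave out the spread between libraries. Reads may not be independent, because PCR copies of 1 molecule cannot be recognised without molecular identifiers.

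**Figure D1:**
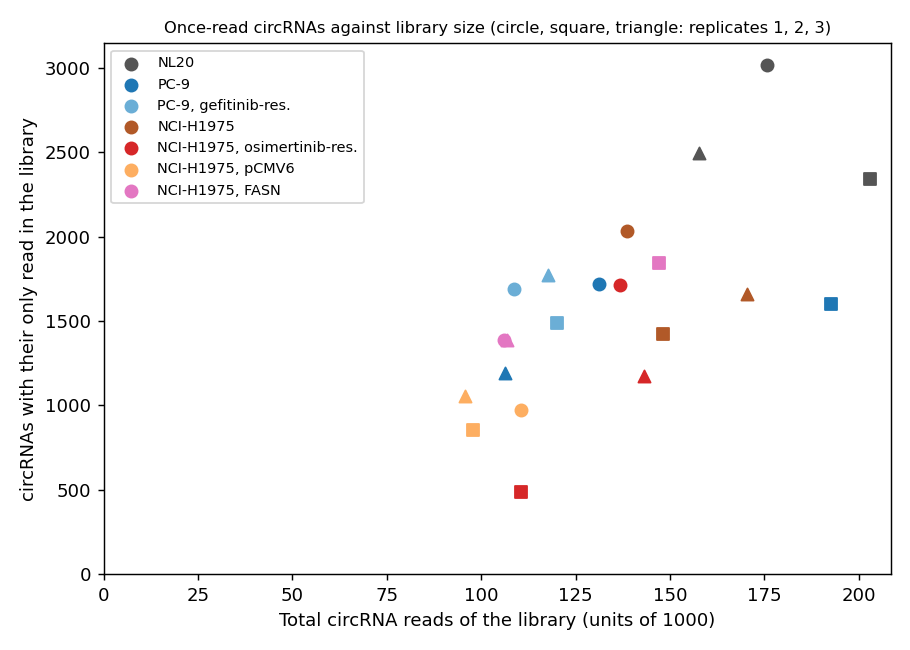
Each point is 1 library, with its total circRNA reads, in units of 1000, on the x axis and the number of circRNAs whose only read is in that library on the y axis. Colours mark the 7 groups and shapes the replicates. The NL20 libraries lie at the top, between 2341 and 3018, and osimertinib-resistant replicate 2 lies lowest, at 485.

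The number of once-read circRNAs was set against total reads within each cancer line. Over the 12 NCI-H1975 libraries, the number of once-read circRNAs went with total reads at a Pearson r of 0.64 (permutation p = 0.0252, two-sided) and a Spearman rho of 0.60 (permutation p = 0.0422). Both had an adjusted p of 0.169 by Benjamini-Hochberg over 8 permutation tests, so the relation did not pass the correction. Without the 2 libraries farthest from the median total, NCI-H1975 replicate 3 and pCMV6 replicate 3, r was 0.63. The libraries of a line come in groups of 3, and the permutations treated them as exchangeable. The pCMV6 libraries were low on both values, with 95808 to 110456 reads and 857 to 1057 once-read circRNAs. In NCI-H1975 cells without a code the shallowest library, with 138753 reads, had the most, 2031. Over the 6 PC-9 libraries r was 0.21 (exact permutation p = 0.658) and rho 0.26 (exact permutation p = 0.658), with 0.018 for r without the 2 farthest libraries.

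Per 1000 reads, the number had no such relation to depth in NCI-H1975, with r = 0.11 (permutation p = 0.746) and rho = -0.07 (permutation p = 0.837). In PC-9 the values were r = -0.76 (exact permutation p = 0.0847, adjusted 0.226) and rho = -0.37 (exact permutation p = 0.497). Without the 2 farthest libraries r was -0.72 in PC-9 and 0.23 in NCI-H1975. The lines form separate clusters, so no correlation was computed over all 21 libraries, and NL20 has too few libraries for its own.

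Groups were compared on the number of once-read circRNAs per 1000 reads. The rule sums all libraries alike and does not use which library holds the read. Every FASN library lay above every pCMV6 library, at 12.9 ± 0.295 against 9.53 ± 1.30 per 1000 reads (SD, n = 3 each), with an exact two-sided permutation p of 0.1. This is the smallest p that 3 libraries against 3 allow, so no comparison of 1 group with 1 other can pass 0.05 here. After Benjamini-Hochberg adjustment over the 14 exact permutation tests made, the p was 0.56. The FASN and pCMV6 cells differ in what they were transfected with, while both passed through G418. The difference of 3.33 per 1000 reads was 5.74 at equal depth and 8.01 with the rule applied to these 6 libraries, with no overlap in either (exact permutation p = 0.1 for both). The share of reads on circRNAs found in 1 library alone did not differ in this way, with means of 3.34% in FASN and 3.36% in pCMV6 cells. These reads fell on such circRNAs at a mean of 1.59 and 1.83 reads for each.

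The pCMV6 cells in turn differed by -1.80 per 1000 reads from NCI-H1975 cells without a code, whose mean was 11.3 ± 2.87, and the libraries overlapped (exact permutation p = 0.5, adjusted 0.636). That difference was as small as -0.17 when NCI-H1975 replicate 1 was left out. With all libraries thinned to equal depth it was -6.83 per 1000 reads, and the groups no longer overlapped (exact permutation p = 0.1).

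The means of the resistant cells lay on opposite sides of those of their lines, and in both lines the libraries overlapped. Gefitinib-resistant PC-9 cells had 14.3 ± 1.68 once-read circRNAs per 1000 reads against 10.9 ± 2.40 in PC-9 cells (SD, n = 3; exact permutation p = 0.2, adjusted 0.56). At equal depth this difference of 3.45 was 1.32, the rule applied to these 6 libraries alone made it 5.40, and without PC-9 replicate 2 it was 2.11. Osimertinib-resistant NCI-H1975 cells had 8.37 ± 4.07 against 11.3 ± 2.87 (exact permutation p = 0.4, adjusted 0.636). Without osimertinib-resistant replicate 2 the difference of -2.95 was -0.94, without osimertinib-resistant replicate 1 it was -5.15, and leaving out replicate 1 of NCI-H1975 gave -1.43. It was -5.35 at equal depth and -6.72 with the rule applied to these 6 libraries. The difference between the changes was 6.40 per 1000 reads, with an exact permutation p of 0.075 (400 arrangements of the labels within lines), and 4.37 without osimertinib-resistant replicate 2 (exact permutation p = 0.185). That comparison was added after the values had been seen.

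Both cancer lines had lower means than NL20, at 10.9 in PC-9 and 11.3 in NCI-H1975 against 14.8 ± 2.95 once-read circRNAs per 1000 reads. The differences were -3.96 and -3.52 (exact permutation p = 0.2 and adjusted 0.56 for both). With a library left out they lay between -6.34 and -2.39 for PC-9 and between -5.87 and -2.61 for NCI-H1975. With the rule applied only to the 6 libraries compared, so that each line had 3, the differences were -5.18 and -3.09 (exact permutation p = 0.3 and 0.4). At equal depth they were -8.40 and -7.42, with no overlap between groups (exact permutation p = 0.1 for both). That setting kept all 21 libraries, so it made depth equal but not the number of libraries per line. NCI-H1975 and PC-9 differed by 0.45, with an exact permutation p of 0.9. With the rule applied to their 6 libraries the difference was 1.86 (exact permutation p = 0.7).

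**Figure D2:**
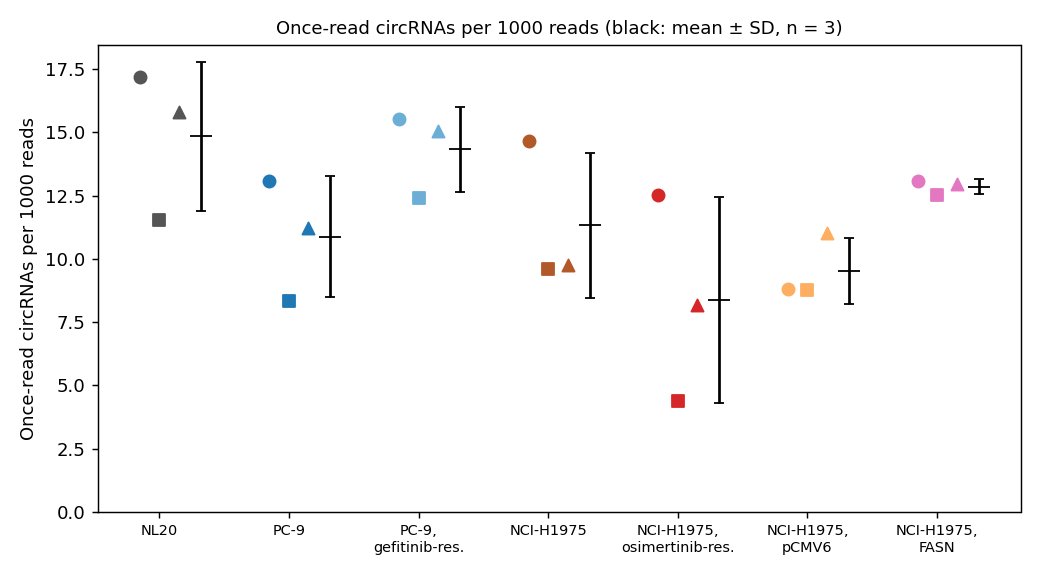
Once-read circRNAs per 1000 reads (y axis) in the 7 groups, with 1 point for each library and the mean ± SD of 3 libraries in black. The FASN libraries lie between 12.5 and 13.1, above the pCMV6 libraries at 8.76 to 11.0, and osimertinib-resistant replicate 2 is lowest at 4.39.

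The same groups were compared on a measure that takes each library by itself, the share of its distinct circRNAs that had 1 read there, whatever their reads elsewhere. The once-read circRNAs of the table made up 13.2% to 25.6% of these. The share was 38.7% ± 1.19 in FASN cells and 33.0% ± 2.05 in pCMV6 cells (SD, n = 3), again without overlap (exact permutation p = 0.1, adjusted 0.56). It was 38.1% ± 1.77 in gefitinib-resistant and 33.4% ± 5.30 in other PC-9 cells, with an exact permutation p of 0.3. That difference of 4.75 percentage points was 1.00 at equal depth and 1.69 without PC-9 replicate 2. In NCI-H1975 it was 30.1% ± 6.07 in osimertinib-resistant cells and 35.3% ± 3.84 in cells without a code, with an exact permutation p of 0.3. That difference of -5.22 points was -2.23 without osimertinib-resistant replicate 2, -8.30 without replicate 1 of the same group and -3.01 without NCI-H1975 replicate 1.

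The other comparisons of this measure overlapped between groups as deposited. The share in pCMV6 cells differed by -2.27 points from NCI-H1975 (exact permutation p = 0.5), and by -9.50 at equal depth, without overlap (exact permutation p = 0.1). PC-9 differed by -3.10 points from the 36.5% ± 3.72 of NL20 (exact permutation p = 0.5), by -6.33 at equal depth, without overlap (exact permutation p = 0.1), and by -0.05 without PC-9 replicate 2. NCI-H1975 differed by -1.19 points from NL20 (exact permutation p = 1; -3.31 at equal depth) and by 1.92 from PC-9 (exact permutation p = 0.7; 3.02 at equal depth).

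Rows with 1 read in the library were thus common in every library, at 24.1% to 39.7% of its distinct circRNAs. The change between the 2 resistant lines differed by 9.97 percentage points on this measure (exact permutation p = 0.11), and by 6.98 without osimertinib-resistant replicate 2 (exact permutation p = 0.195).

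The next steps of the rare tail show how reads of scarce circRNAs were placed. Of the 20789 circRNAs with 2 reads in the table, 15393 (74.0%) had both in the same library and 5396 had them in 2 libraries. If the 2 reads of a circRNA had fallen independently, each with the library shares of the once-read circRNAs, 5.36% would lie in 1 library. Of the 12958 circRNAs with 3 reads, 6298 (48.6%) had all in 1 library. The share fell to 29.5% at 4 reads, 15.7% at 5 and 0.77% at 10.

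Scarce circRNAs were therefore often read several times in 1 library and not at all in the other 20. In all, 59010 circRNAs were read in 1 library alone, and the once-read circRNAs were 56.4% of them. The other 25708 had between 2 and 12 reads. Whether their repeated reads came from separate RNA molecules or from copies of 1 fragment cannot be told apart in counts without molecular identifiers.

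**Figure D3:**
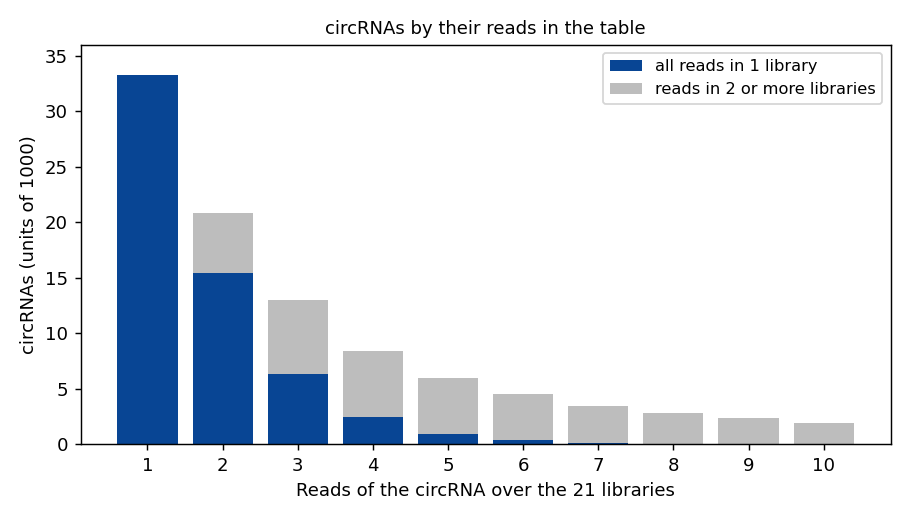
The number of circRNAs, in units of 1000 (y axis), by their reads over all 21 libraries (x axis), split into those with all reads in 1 library (blue) and those with reads in more (grey). Of the circRNAs with 2 reads, 15393 of 20789 lie in 1 library, and at 10 reads only 15 of 1948 do.

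Where the 2 reads of a circRNA fell in different libraries, a larger share fell in the same cell line than the placement of the once-read circRNAs would give. Of the 5396 such circRNAs, 2257 (41.8%) were read in 2 libraries of 1 line, against 33.1% from that placement. Within these, 818 (15.2%) were in 2 libraries of 1 group, against 10.9%, and 1439 (26.7%) in 2 groups of 1 line, against 22.2%. The remaining 3139 (58.2%) joined 2 lines, against 66.9%. These shares are descriptions, as circRNAs are not independent replicates.

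Each library was then held out in turn, and the circRNAs read once over the other 20 were looked up in it. This uses a library that took no part in choosing them. Between 31759 and 33329 circRNAs were read once in the other 20, and the held-out library read between 1.54% and 4.65% of them, with a median of 2.89%. NL20 replicates 1 and 2 read the most, 4.64% and 4.65%, and osimertinib-resistant replicate 2 the fewest, 512 of 33329.

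The share read again was higher when the single read came from the same cells. When its single read lay in the same group, the held-out library read it in 3.72% of cases (median of 21 libraries, range 2.00% to 6.83%). When the read lay in another group of the same line, the median was 3.28% (18 libraries, 1.68% to 4.70%). When it lay in another line, the median was 2.53% (21 libraries, 1.36% to 4.23%). The median over 18 leaves out the 3 NL20 libraries, which read 5.88% to 6.83% from the same group and 3.79% to 4.23% from other lines. The steps between these medians are therefore not over the same libraries. The same-group share was above the other-line share in 21 of 21 libraries, by 1.35 to 2.15 times, and it was above the share for other groups of the line in 16 of 18. The exceptions were gefitinib-resistant replicate 2, with 3.30% against 3.73%, and NCI-H1975 replicate 3, with 4.08% against 4.19%. The libraries share most of these circRNAs, so no p is given. The differences between origins were small beside the range over held-out libraries, and no held-out library read more than 6.83% of the once-read circRNAs of any origin.

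CircRNAs with reads repeated in 1 library were read elsewhere about as often as those with a single read. CircRNAs that had 2 reads in 1 of the other 20 libraries were read in the held-out library in 2.77% of cases (median of 21, range 1.33% to 4.91%), near the 2.89% for those with 1 read. The ratio of these shares had a median of 1.04 and lay between 0.87 and 1.17, above 1 in 15 of 21 libraries. CircRNAs with 1 read in each of 2 libraries were read in 6.85% of cases (3.49% to 11.3%), which was 2.26 to 2.83 times the once-read share. The same held at 3 reads: all in 1 library gave 3.14% (median), while 1 in each of 3 libraries gave 10.3%. In this table the number of libraries, more than the number of reads, thus went with whether a scarce circRNA was met again, and in all 21 libraries the share for 2 libraries was above the share for 2 reads in 1.

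**Figure D4:**
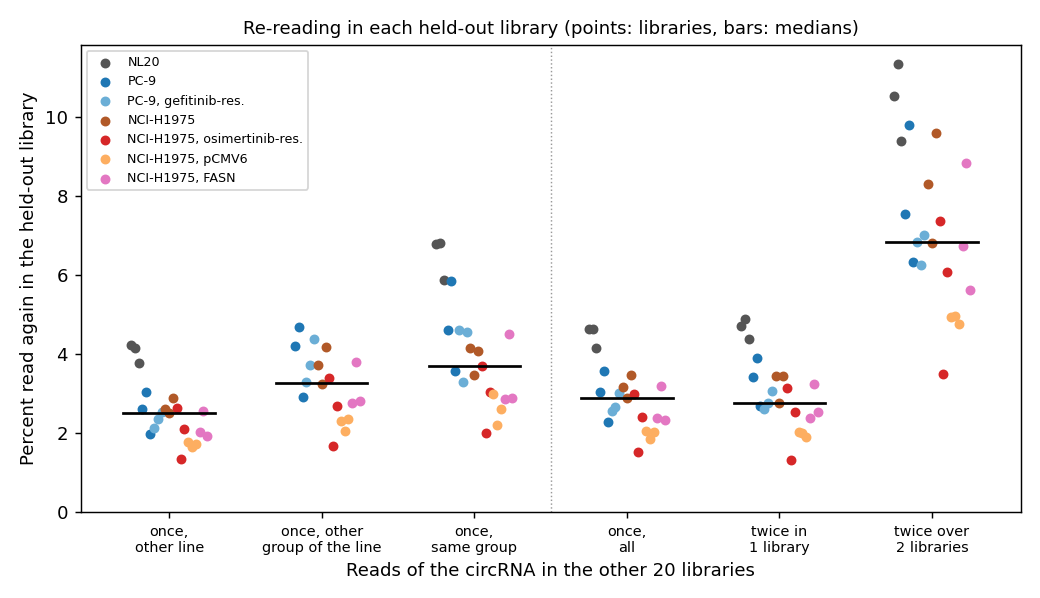
Percent of circRNAs read again in a held-out library (y axis) by their reads in the other 20 (x axis), with 1 point for each of the 21 held-out libraries (18 where NL20 has no other group) and medians as bars. Medians rise from 2.53% for a single read in another line to 3.72% in the same group, and 2 reads in 1 library (2.77%) lie near a single read (2.89%), below 2 reads over 2 libraries (6.85%).

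Osimertinib-resistant replicate 2 can be set beside a library of the same size, as pCMV6 replicate 1 also has 110456 reads. Their columns differ, and why 2 libraries share an exact total is not known. The resistant library held 485 once-read circRNAs and the pCMV6 library 972. It held 3672 circRNAs with 1 read in the library against 6120, 2958 with 2 reads against 4100, and 2216 with 3 against 2630. At 4 or more reads the libraries were close, with 6398 and 6644 circRNAs. Against this library, the deficit of the resistant library was thus in its scarce circRNAs and was deepest at 1 read. The pCMV6 library was itself below the median of 1603 once-read circRNAs. Of the other 20 libraries, 6 had fewer reads than the resistant library, and the same 6 had fewer circRNAs with 4 or more reads. All 20 had more once-read circRNAs. The deepest of the 6, gefitinib-resistant replicate 1 with 108805 reads, held 6121 circRNAs with 4 or more reads and 1689 once-read ones. In addition, the circRNA with the most reads over all 21 libraries took 11.4% of the reads of the resistant library. It took 3.02% in the pCMV6 library and at most 7.66% in any of the other 20. The most abundant circRNA of each library by itself was not analysed here.

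The reads that this library spent on circRNAs found nowhere else were not unusually few. They made up 3.23% of its reads, inside the range of 3.22% to 4.20% over the other 20, though near its lower end. They fell on 1455 circRNAs, fewer than the 1752 to 4751 of the other libraries, with 2.45 reads for each against 1.49 to 2.06. Of these 1455 circRNAs, 33.3% had 1 read, against 43.9% to 65.9% elsewhere, and 20.3% had 4 or more, against 2.92% to 12.5%.

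Over all 21 libraries the contrast was the same in kind. The share of reads in circRNAs found in that library alone differed by 1.30 times between the highest and the lowest library. The once-read circRNAs per 1000 reads differed by 3.91 times, with osimertinib-resistant replicate 2 as the lowest library. Without it they ran from 8.19 to 17.2 per 1000 reads. For every circRNA with 2 reads in a library and none elsewhere, there were 1.18 once-read circRNAs in osimertinib-resistant replicate 2 and 1.60 in PC-9 replicate 2, the next lowest. NCI-H1975 replicate 1 had the most, at 2.81. By group this ratio was 1.73 ± 0.545 in osimertinib-resistant cells (SD, n = 3), from 2.27, 1.18 and 1.75 in replicates 1, 2 and 3. It was 1.93 ± 0.223 in pCMV6, 1.99 ± 0.370 in PC-9 and 2.20 ± 0.535 in NCI-H1975 cells. It was 2.27 ± 0.325 in NL20, 2.44 ± 0.104 in FASN and 2.46 ± 0.197 in gefitinib-resistant cells. The mean share of reads in circRNAs found in 1 library alone was 4.09% in NL20, and 3.71% in both PC-9 and gefitinib-resistant cells. It was 3.30% in NCI-H1975, 3.40% in osimertinib-resistant, 3.36% in pCMV6 and 3.34% in FASN cells. The part of repeated reads within a library in the group differences above was not tested.

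**Figure D5:**
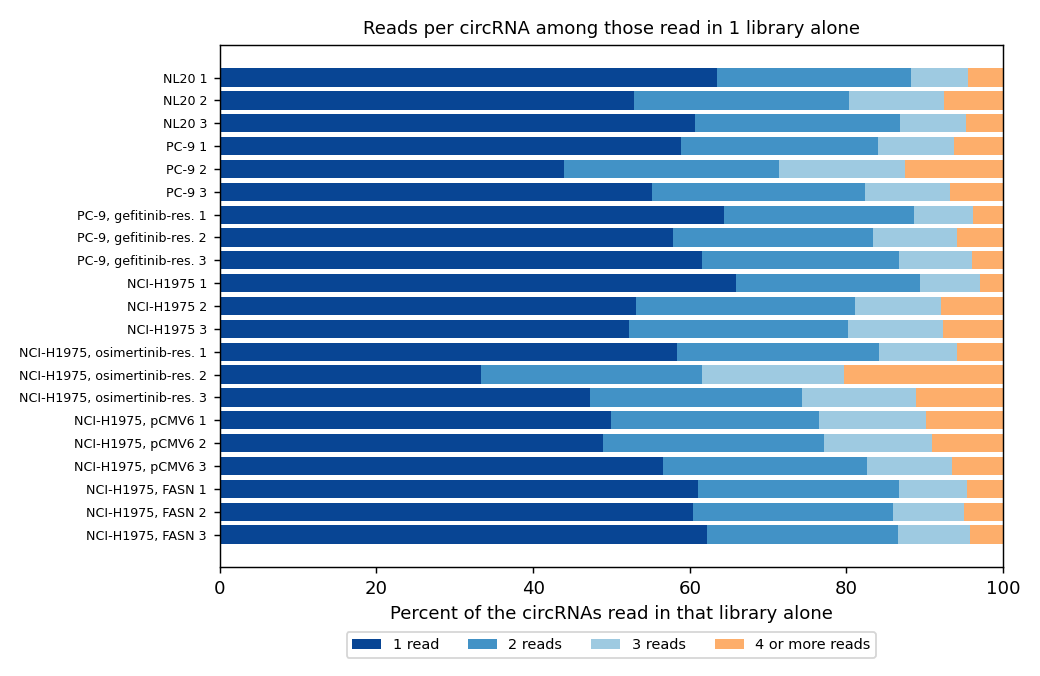
For each of the 21 libraries, the circRNAs read in that library alone, split by their number of reads (x axis, percent; 1 bar per library). The once-read circRNAs are the dark blue parts, from 33.3% in osimertinib-resistant replicate 2 to 65.9% in NCI-H1975 replicate 1.

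New circRNAs kept appearing up to the last library. Averaged over all orders of the libraries, 1 library showed 23232 circRNAs, 10 showed 86659 and 20 showed 121272, and the last library added 2810.

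The share of reads in once-read species is the textbook (Good-Turing) estimate of the chance that a further read shows something unseen. From any 20 libraries it was between 1.19% and 1.25%. In the held-out library, however, 3.22% to 4.20% of the reads were in circRNAs that the other 20 lacked. That was 2.63 to 3.50 times the estimate, and above it in 21 of 21 libraries. These are the reads of circRNAs found in 1 library alone, given above, and they include repeated reads. The excess therefore restates how often reads were repeated in 1 library and is no separate test of the estimate. Of these unseen circRNAs, between 33.3% and 65.9% had a single read.

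Estimates of the circRNAs still unseen differed in the same way. From the circRNAs with 1 and with 2 reads (Chao1), at least 26673 further circRNAs would be expected. From the 59010 read in 1 library and the 18363 read in 2 (Chao2), the lower estimate was 90300. Both formulas assume that reads or libraries sample circRNAs independently, and the share of second reads that lay in the library of the first is the 74.0% given above. They count rows as the table lists them, false junctions included.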

How the data were processed

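Circular RNA was purified from column-extracted total RNA and made into libraries by a sequencing provider, per the labels' protocols. The authors deposited raw read counts for each circRNA, with no normalization. Per the submitters' processing notes, the build was hg38 and the tools were HISAT2 and DESeq2, without versions or roles. The sources used here name no circRNA caller or read minimum. The file itself lists circRNAs with 1 read.

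Columns were matched to samples by name. Members were rows with a total of 1 over the 21 columns. None can pass a filter such as a minimum total of 10, so no test per circRNA was made. Values per library were compared by exact two-sided permutation tests of group means (scipy 1.17.1, numpy 2.4.6, pandas 2.3.3), adjusted by Benjamini-Hochberg over 14 tests (7 comparisons of 2 measures). Equal depth means the exact expectation after binomial thinning to 95808 reads, tested on simulated data. It thins all libraries together, so it also turns circRNAs with more reads into once-read ones. The identifiers to be named were the lowest and highest number among all once-read circRNAs and among those of the library with the fewest. The members, measures and lists were chosen with earlier results of these data known.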

Additional observations from a re-analysis of the deposited data

How the results depend on the processing

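The direction held in 67 of 70 recomputed differences between groups, apart from fits that left out a single library or used the replicate block, which cannot change it. Against the direction reported, pCMV6 minus NCI-H1975 was 2.54 when circRNAs with 1 read in a library were counted per 1000 reads in place of per distinct circRNA. NCI-H1975 minus PC-9 was -0.33 per 1000 reads and -0.18 percentage points with replicate 2 of all groups left out, an alternative chosen after seeing the data. With single libraries left out, NCI-H1975 minus PC-9 ran from -1.23 to 1.45 per 1000 reads, below 0 without PC-9 replicate 2 or NCI-H1975 replicate 1. On the share with 1 read in the library it ran from -1.14 to 3.52 percentage points, turning with the same libraries, and NCI-H1975 minus NL20 ran from -3.40 to 0.13, turning without NCI-H1975 replicate 3 or NL20 replicate 1. The cause was not tested. The number of once-read circRNAs lay between 31759 and 33329 with a library left out and was 34982 at equal depth, and a rule of exactly 2 reads gave 20789. Both reads lay in 1 library for 14912 to 15237 circRNAs. With the replicate block, exact sign-flip p-values lay between 0.25, the smallest that 3 pairs allow, and 1, and FASN minus pCMV6 was 3.33 per 1000 reads. Over 4285 circRNAs averaging 5 or more reads, same-numbered libraries did not deviate together (r from -0.03 to 0.06, 7 of 42 correlated best with their own number), so the numbers were not used as pairs. This check does not cover the rare tail, where replicate 2 was lowest per 1000 reads in 7 of 7 groups, in some by small margins.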

Other observations

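The once-read circRNAs are not spread evenly over the numbering of the table. The numbers form 21 unbroken runs, and each run holds the circRNAs that a column read and no earlier column did. Of the 19494 numbered from the first library, pCMV6 replicate 1, 972 (4.99%) were once-read. Of the 2160 numbered from the last, PC-9 replicate 3, 1193 (55.2%) were. The lowest-numbered once-read circRNA was hsa_circ_2, read in pCMV6 replicate 1, and the highest was hsa_circ_124080, read in PC-9 replicate 3. Those of osimertinib-resistant replicate 2 lay between hsa_circ_87274 and hsa_circ_89422. A high number therefore marks a circRNA that earlier columns lacked.

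Replicate 2 had the fewest once-read circRNAs per 1000 reads in 7 of 7 groups, a pattern seen in the data and not part of the design. It was the deepest library of its group in 4 of 7 groups and the shallowest in 1. At equal depth it was lowest in 5 of 7 groups, and in 5 of 7 on the share of circRNAs with 1 read in the library. The labels do not say what a replicate number marks, and the cause was not tested.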
